A study of Mus musculus with 3 samples.

Results

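The cells described here are mouse Peyer's patch phagocytes that carried lysozyme, the complement protein C1q and Cd4 messenger RNA together. A cell was taken when the UMIs (unique transcript molecules) of Lyz1, C1qa, C1qb and C1qc summed to at least 80 per 10000 UMIs and when it held at least 1 UMI of Cd4. Cells with 4 or more UMIs of Ccr7, 4 or more UMIs of the cell cycle genes Mki67, Top2a, Birc5 and Ube2c together, or 3 or more UMIs of the B cell gene Cd79a were left out. In the Control library, cells with 3 or more UMIs of Cxcl10 were left out as well. The cells were thus chosen by their measured Lyz1, C1q, Cd4, Ccr7, cell cycle, Cd79a and Cxcl10 counts, and values of these genes below describe the choice. The rule gave 1485 cells of 15434 that passed filtering, with 579 of 5107 in the R848 library, 380 of 5023 in the CpG library and 526 of 5304 in the Control library.

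The libraries were made by droplet single-cell RNA sequencing from Peyer's patches of female C57BL/6Rj mice, and each came from a single pool of 12 mice. R848, a small-molecule agonist of Toll-like receptor 7, was injected intraperitoneally at 10 µg and CpG, a DNA agonist of Toll-like receptor 9, at 125 µg, both for 9 h, in sterile phosphate-buffered saline. The Control mice had no treatment, so an injection of saline alone is not part of the comparison. The pools held 90 (R848), 85 (CpG) and 88 (Control) Peyer's patches. Cells enriched with anti-CD11c beads were stained for CD4, CD11b, MHC class II and other surface markers, and live conventional dendritic cells, LysoDC and macrophages were sorted, so the sort gates can set the shares of cells and the levels of these genes among them. With 1 library per group there was no replicate, no test was run, and the intervals below, at the 95% level, cover only the error of counting.

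Peyer's patches are groups of lymphoid follicles in the wall of the small bowel. M cells in the epithelium above them pass material from the gut lumen to phagocytes in the dome. In mice these lysozyme-expressing phagocytes derive from monocytes and are divided into short-lived dendritic cells, called LysoDC, and longer-lived macrophages, part of which carry CD4 on their surface. MHC class II molecules present peptides to CD4-expressing T cells, while Timd4 (Tim-4) binds phosphatidylserine on dying cells and marks long-lived resident macrophages in several tissues.

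The Cd4-positive cells made up 11.3% (10.5 to 12.2, exact binomial interval) of filtered cells in the R848 library, 7.57% (6.85 to 8.33) in the CpG library and 9.92% (9.13 to 10.8) in the Control library. Of the cells inside the same lysozyme and C1q gate they made up 33.7%, 31.1% and 26.9% in the R848, CpG and Control libraries. The median Cd4-positive cell held 12165 UMIs with R848, 12462 with CpG and 9808 in Control, and shares at different depths are not alike in how readily a Cd4 UMI is seen. Every cell was then thinned to 3000 UMIs, which left out 277 R848, 255 CpG and 279 Control cells. The rule was applied anew to the thinned counts. The thinned gate held 1972 R848, 1267 CpG and 1978 Control cells, against 1717, 1221 and 1959 with all UMIs. The share of the gate was 14.8% (13.3 to 16.5), 14.5% (12.6 to 16.6) and 15.5% (13.9 to 17.1), with overlapping intervals. Because the thinned gate did not hold the same cells, the part of depth in the shares was not tested. Of all thinned cells, the Cd4-positive ones made up 6.05% with R848, 3.86% with CpG and 6.09% in Control. The summed UMIs of the Cd4-positive cells were 7185675 with R848, 4856451 with CpG and 5226008 in Control, and levels below are CPM, which are UMI counts scaled to the same total in every group.

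Few cells lay near the edge of the gate. Among cells with Cd4 that met the limits on Ccr7, cell cycle genes, Cd79a and, in Control, Cxcl10, none had a lysozyme and C1q sum between 80 and 100 per 10000 UMIs, and 1 cell, in the R848 library, lay between 60 and 80. Of these, the cells under the gate numbered 12 with R848, 10 with CpG and 53 in Control. The Cd4 limit had no such gap: 206 R848, 133 CpG and 217 Control cells entered with a single Cd4 UMI. Mature dendritic cells outside the gate were taken as a class with little Cd4 messenger RNA. They held a Cd4 UMI in 0.627% (R848), 0.894% (CpG) and 2.26% (Control) of cells, at median depths of 5572, 5918 and 5816 UMIs. The Control share rests on 5 of 221 cells (interval 0.739 to 5.20). The shares with R848 and CpG rest on 13 of 2075 (0.334 to 1.07) and 25 of 2797 cells (0.579 to 1.32). Free RNA was estimated to give 19.2 (R848), 9.59 (CpG) and 25.1 (Control) cells of the gate a Cd4 UMI. The libraries shared 33 to 42 cell barcodes per pair, and 3 of these barcodes in all belonged to Cd4-positive cells in both libraries of a pair.

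The label of macrophage was set against the markers named for it. Cd4 (ENSMUSG00000023274, mm10 chromosome 6, 124864692 to 124888221, minus strand) stood at 217 CPM with R848, 229 with CpG and 260 in Control. C1qa, a chain of the complement starter C1q, stood at 7752, 10101 and 10495 CPM in the R848, CpG and Control libraries. These genes chose the cells, so their levels describe the rule. C3, Atp6v0d2, Igf1 and Ms4a7 were not in the rule, and all of them were above 50 CPM in the Cd4-positive cells of every library. They were given as markers of these cells with earlier results of these data known, so their levels do not check the label. The tissue macrophage list of 37 genes was detected only in part. Csf1r, Cx3cr1, Cd68 and Mertk were each above 50 CPM in every library. With 5 CPM added to both sides, Csf1r, Cx3cr1 and Cd68 were within 2-fold of cells of the gate with no Cd4 in every library. Mertk passed 2-fold, upward, only with R848. Mrc1, Cd163, Cd5l and Lyve1 had 0 UMIs in the Cd4-positive cells of all libraries, which allows up to 0.417 CPM with R848, 0.618 with CpG and 0.574 in Control. Fcgr1, which encodes the high-affinity IgG receptor CD64, stood at 2.78, 1.85 and 0 CPM in the R848, CpG and Control libraries.

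Markers of other cells were looked at as whole lists. Cd79a of the B cell list and Ccr7 of the mature dendritic cell list were limited by the rule, so their levels describe the choice. Of 6 T cell markers measured, none reached 20 CPM and the list summed to 1.25 CPM with R848, 2.68 with CpG and 2.49 in Control, with Cd3e at 0 in every library. The B cell list summed to 169 (R848), 153 (CpG) and 215 (Control) CPM, nearly all of it Cd79b, which stood at much the same level in cells of the gate with no Cd4 (162, 118 and 190 CPM). Mature dendritic cell markers summed to 658, 625 and 577 CPM in the R848, CpG and Control libraries, and to 805, 609 and 592 CPM in the cells with no Cd4. Most of the sum in Cd4-positive cells was Fscn1 and Il4i1. Ccl17 of this list stood at 150, 188 and 74.4 CPM, against 117, 134 and 105 CPM in the cells with no Cd4. The conventional dendritic cell type 2 list summed to 483 (R848), 501 (CpG) and 456 (Control) CPM, most of it Sirpa, which macrophages also express, with Clec10a at 0, 0 and 2.49 CPM. The type 1 list summed to 293, 324 and 328 CPM, most of it Ppt1 and Naaa, with Xcr1 at 0.278, 0.618 and 3.06 CPM. The plasmacytoid dendritic cell list summed to 52.0, 73.3 and 97.2 CPM, most of it Ccr9. The neutrophil list summed to 62.3, 44.1 and 45.5 CPM, nearly all of it Csf3r at 61.7, 43.7 and 45.0 CPM, while Ly6g and Retnlg were at 0 in every library. F13a1 of monocytes was at 0 in every library as well. The monocyte list summed to 444 CPM with R848, 301 with CpG and 163 in Control, and to 371, 410 and 384 CPM in the cells with no Cd4. Its members included Ccr2 and the interferon-responsive Ms4a4c, which stood at 355 CPM with R848 and 179 with CpG, against 5.55 in Control. The part of these transcripts in the comparisons was not tested.

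Within the gate, the Cd4-positive cells were set beside the cells with no Cd4 UMI (Cd4 0 cells), which numbered 1138 with R848, 841 with CpG and 1433 in Control. These can hold LysoDC and macrophages without detected Cd4. The split by Cd4 came with a broad difference in MHC class II and in macrophage genes, which is given as a description because Cd4 chose the cells. A gene counted as measured at 20 CPM or more in the higher group, and as higher or lower when the ratio was at least 2-fold after adding 5 CPM to both sides. In Control, 84 of 4647 measured genes were higher in Cd4-positive cells (1.81%) and 59 were lower (1.27%). Within the R848 library the counts were 53 of 4932 (1.07%) and 47 (0.953%), and within the CpG library 71 of 4747 (1.5%) and 56 (1.18%).

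MHC class II genes were the lowest group in Cd4-positive cells. H2-Aa, the alpha chain of the I-A molecule (ENSMUSG00000036594, mm10 chromosome 17, 34282744 to 34287823, minus strand), stood at 840 CPM in Cd4-positive and 6077 in Cd4 0 cells with R848, at 1208 and 8505 CPM with CpG, and at 1595 and 10579 CPM in Control, where it was 6.63-fold lower (interval 6.49 to 6.78). Cd74, the invariant chain that holds MHC class II in the secretory pathway, stood at 4416 CPM in Cd4-positive and 27156 in Cd4 0 cells of the Control library (6.15-fold lower, 6.07 to 6.23). Of 13 measured genes of MHC class II presentation in Control, 9 were at least 2-fold lower and none higher, with a median log2 ratio of -1.81. The same list gave 7 of 10 lower with R848 (median -1.90) and 8 of 11 with CpG (-1.55). The lower members in Control included the peptide exchange factors H2-DMa, H2-DMb1 and H2-DMb2 and Ciita, the transcriptional activator of the class II genes, at 6.89 CPM in Cd4-positive and 36.6 in Cd4 0 cells.

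What remained of MHC class II in the Cd4-positive cells was held by few of them. In Control, the 53 cells with most H2-Aa held 69.9% of its 8338 UMIs, and the 58 such R848 cells and 38 CpG cells held 76.1% and 75.6%. Cells with at least 200 MHC class II UMIs per 10000 made up 8.64% (6.48 to 11.2) of Cd4-positive cells with R848, 11.3% (8.31 to 14.9) with CpG and 11.4% (8.82 to 14.4) in Control. Among Cd4 0 cells the shares were 78.2%, 83.2% and 84.2%. By number of Cd4 UMIs, the share in Control was 84.2% of cells with 0, 16.6% with 1, 13.7% with 2, 4.29% with 3 and 4.10% with 4 or more. From 3 to 4 or more Cd4 UMIs it was 3.09% and 3.57% with R848, and 3.51% and 3.88% with CpG. The median MHC class II sum in Control was 631 per 10000 UMIs at 0 Cd4 UMIs, 35.9 at 1, 24.8 at 2, 21.3 at 3 and 12.4 at 4 or more. Free RNA was estimated to give 438 CPM of H2-Aa and 1252 CPM of Cd74 in Control. Without the Cd4-positive cells of high MHC class II, the log2 ratio of H2-Aa in Control was -4.31, against -2.73 with them. Cells chosen by their MHC class II UMIs were taken from the Cd4-positive side only, and the Cd4 0 side kept its own. A lower ratio was thus set by the choice and is given as a description.

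**Figure D1:**
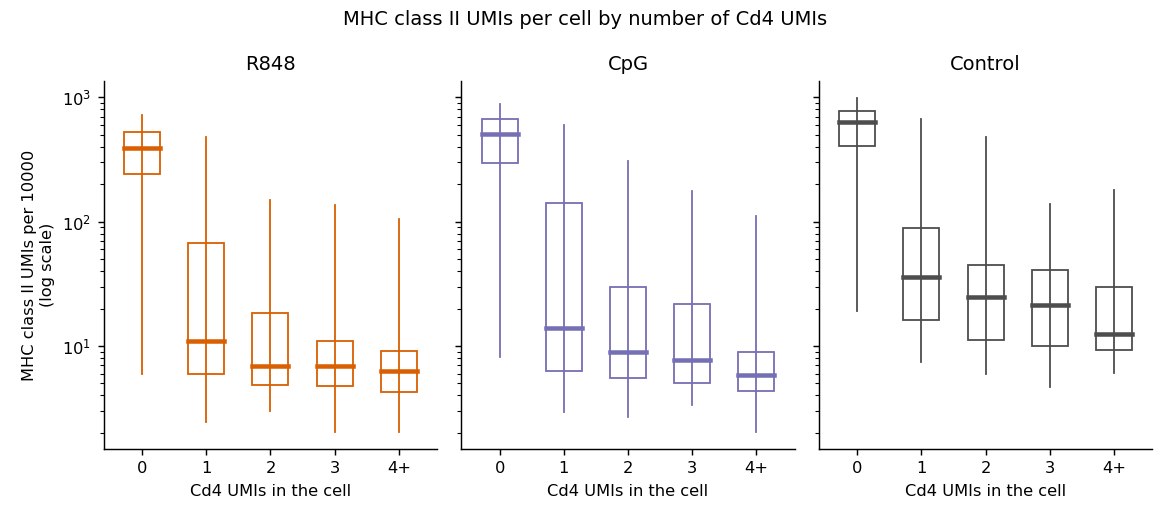
MHC class II UMIs per 10000 UMIs of each cell (log scale) against the number of Cd4 UMIs in the cell, for cells of the lysozyme and C1q gate in the R848, CpG and Control libraries; thick lines are medians, boxes the middle 50% of cells and thin lines the 5th to 95th percentiles. The Control medians run from 631 at 0 Cd4 UMIs to 12.4 at 4 or more, and the boxes at 0 and at 1 Cd4 UMI do not overlap in any library.

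The promoters of MHC class II genes are known for a Y box, the reversed CCAAT sequence bound by the factor NF-Y, next to the X box bound by the RFX complex. The letters CTGATTGG were searched on both strands in RefSeq promoter windows of build GRCm38.p6. They were found in 4 of the 11 listed class II genes with a window (H2-Aa, H2-Eb1, H2-Eb2 and H2-Oa), against 4.70% of all 27025 genes with a window and 4.10% of the 32851 windows. The 250 bases before the start site of H2-Aa (chr17:34287824-34288073, minus strand) and of H2-Eb1 (chr17:34305617-34305866, plus strand) are shown because these genes were among the lowest in Cd4-positive cells. The capitals mark the Y box, which began 51 bases before the start of H2-Aa and 62 bases before that of H2-Eb1. A match describes the letters only.
H2-Aa: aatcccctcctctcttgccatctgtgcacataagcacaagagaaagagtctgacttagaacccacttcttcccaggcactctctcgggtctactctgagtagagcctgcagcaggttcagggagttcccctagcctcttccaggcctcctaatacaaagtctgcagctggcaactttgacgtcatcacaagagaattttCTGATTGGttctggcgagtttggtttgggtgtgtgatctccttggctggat
H2-Eb1: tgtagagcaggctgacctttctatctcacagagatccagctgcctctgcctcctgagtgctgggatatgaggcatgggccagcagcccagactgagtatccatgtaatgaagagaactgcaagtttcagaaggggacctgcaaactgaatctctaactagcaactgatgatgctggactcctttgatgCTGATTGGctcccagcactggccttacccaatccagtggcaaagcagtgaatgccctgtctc

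Timd4, C3, Atp6v0d2 and Igf1 were among the genes with the highest ratios in Cd4-positive cells. Timd4 (mm10 chromosome 11, 46810800 to 46844332, plus strand) stood at 45.0 CPM in Cd4-positive and 3.04 in Cd4 0 cells with R848, at 90.0 and 6.03 CPM with CpG, and at 88.2 and 10.1 CPM in Control (8.74-fold higher, 7.25 to 10.6). C3, the central complement protein (chromosome 17, 57203970 to 57228136, minus strand), stood at 166 CPM in Cd4-positive and 23.5 in Cd4 0 cells of Control (7.04-fold, with a log2 ratio of 2.58). Atp6v0d2, a macrophage subunit of the proton pump of lysosomes, stood at 101 and 13.3 CPM there (7.62-fold, 6.46 to 9.03). Igf1, the insulin-like growth factor, stood at 115 and 18.4 CPM (6.26-fold, 5.42 to 7.25), and Ms4a7, a membrane protein of macrophages, at 730 and 195 CPM (3.75-fold, 3.57 to 3.93). Wfdc17, a secreted protein with a protease-inhibitor fold, had the highest log2 ratio of the genes named in Control, at 369 and 50.5 CPM. The Cd4-positive cells were higher for each of these 6 genes within the R848 and the CpG library too. With cells thinned to 3000 UMIs and sorted anew by the rule, the log2 ratio of C3 in Control was 1.88, against 2.58 with all UMIs. That of Wfdc17 was 2.02, against 2.75. Sorting anew left 306 Cd4-positive cells in Control, against 526 with all UMIs, so cells that lost their Cd4 UMIs could count as Cd4 0. The part of this in the lower ratios was not tested.

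These genes were then followed over the number of Cd4 UMIs in a cell. In Control, C3 stood at 23.5 CPM in cells with 0 Cd4 UMIs, 102 with 1, 124 with 2, 199 with 3 and 282 with 4 or more. Timd4 stood at 10.1, 51.0, 66.2, 96.9 and 160 CPM over the same classes. The intervals of Timd4 at 1 and 2 Cd4 UMIs overlapped (41.6 to 62.0 and 52.4 to 82.5), as did those at 2 and 3. The order was not strict for every gene and library. C3 stood at 282 CPM at 2 Cd4 UMIs and 214 at 3 with R848, and at 151 and 132 CPM with CpG. Wfdc17 stood at 347 CPM at 1 Cd4 UMI and 296 at 2 in Control. Ccr2, the receptor that brings monocytes out of the blood, was lower in Cd4-positive cells in every library, at 39.1 CPM against 135 with R848, 62.4 against 214 with CpG, and 85.2 against 249 in Control.

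**Figure D2:**
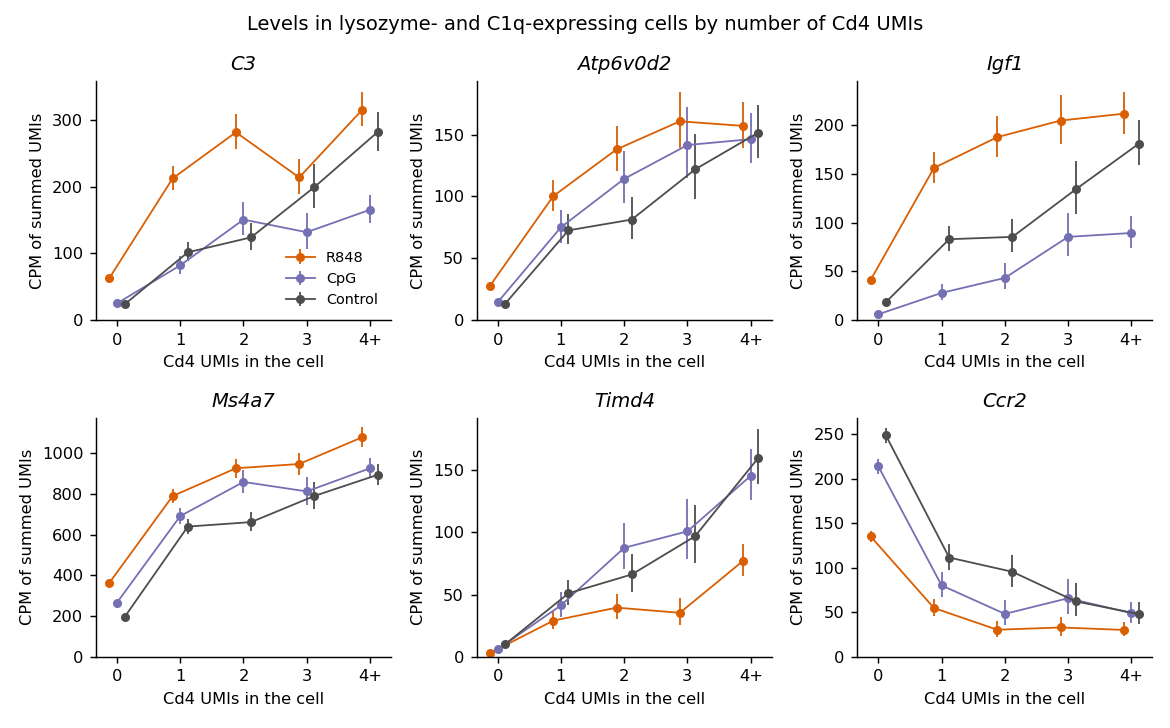
Levels (CPM of summed UMIs) of C3, Atp6v0d2, Igf1, Ms4a7, Timd4 and Ccr2 in cells of the gate against the number of Cd4 UMIs in the cell; points are the R848, CpG and Control libraries and bars are exact Poisson intervals. C3 in Control stands at 23.5 CPM at 0 Cd4 UMIs and 282 CPM at 4 or more, and Ccr2 is highest at 0 Cd4 UMIs in each library.

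Of the tissue macrophage genes, 8 of 22 measured were higher in Control Cd4-positive cells and 1, the integrin chain Itgam, was lower, at 26.0 CPM in Cd4-positive and 65.8 in Cd4 0 cells. The higher members were C3, Igf1, Ms4a7, Atp6v0d2, Timd4, the adhesion molecule Vcam1, the selenium carrier Sepp1 and the iron exporter Slc40a1. Of these, C3, Igf1, Ms4a7 and Atp6v0d2 were markers given for these cells with earlier results of these data known. Their place in the count does not check the label. Slc40a1 stood at 20.1 CPM in Cd4-positive and 1.83 in Cd4 0 cells. The counts were 7 higher of 22 with R848 and 7 of 21 with CpG, and the median log2 ratios were 0.61 (R848), 0.41 (CpG) and 0.57 (Control). The efferocytosis receptor Mertk passed 2-fold with R848, where it stood at 95.2 CPM in Cd4-positive and 42.6 in Cd4 0 cells. In Control it stood at 56.1 and 26.7 CPM.

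Genes of lipid and iron handling gave 9 higher and 1 lower of 25 measured in Control. Apoe, the lipoprotein of macrophage cholesterol export, stood at 51341 CPM in Cd4-positive and 22195 in Cd4 0 cells, and its neighbour Apoc1 at 60.5 and 14.6 CPM. Cp, the copper-carrying ferroxidase, stood at 385 and 128 CPM, and Slc11a1, a metal transporter of phagosomes, at 32.1 and 7.59 CPM. The lower member was Tfrc, the transferrin receptor, at 13.8 CPM in Cd4-positive and 40.1 in Cd4 0 cells. Apoc1, Apoc4, Slc11a1 and Cp were higher in each of the libraries. Without cells that held a UMI of a T or B cell marker, which left 82 Cd4-positive cells in Control, the log2 ratio of Apoc1 there was 0.74, against 1.74, and no longer passed 2-fold.

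Genes for the clearance of dying cells gave 6 higher and none lower of 23 measured in Control, among them Timd4, the scavenger receptor Stab2 (30.2 CPM in Cd4-positive and 7.18 in Cd4 0 cells) and the kinase receptor Axl (110 and 49.9 CPM). Of 52 measured genes of the lysosome and its proton pump, 2 were higher, Atp6v0d2 and the protease gene Ctsd, which stood at 3001 and 1100 CPM, and 50 were within 2-fold. Complement gave 2 higher, C3 and C2 (38.3 and 8.33 CPM), and Itgam lower, of 11 measured. Atp6v0d2 and C3 were also among the markers given for these cells. Genes associated with dendritic cells or LysoDC gave none higher and 5 lower of 13 measured, namely Ccr2, Il22ra2, Plet1, Cd24a and S100a6. Il22ra2, the decoy receptor that blocks the cytokine IL-22, stood at 1580 CPM in Cd4-positive and 3489 in Cd4 0 cells.

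Among cytokine genes, Il1b and its decoy receptor Il1r2 were lower in Cd4-positive cells of every library. Il1b stood at 325 CPM in Cd4-positive and 659 in Cd4 0 cells with R848, at 161 and 423 CPM with CpG, and at 199 and 527 CPM in Control. Clec4a2, an inhibitory C-type lectin, had the lowest log2 ratio of the genes named in Control, at 15.9 and 143 CPM. Of the interferon-stimulated genes, none of 27 measured in Control passed 2-fold between Cd4-positive and Cd4 0 cells, with a median log2 ratio of 0.17. None of 47 passed within the R848 library (median 0.38) or the CpG library (0.19).

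**Figure D3:**
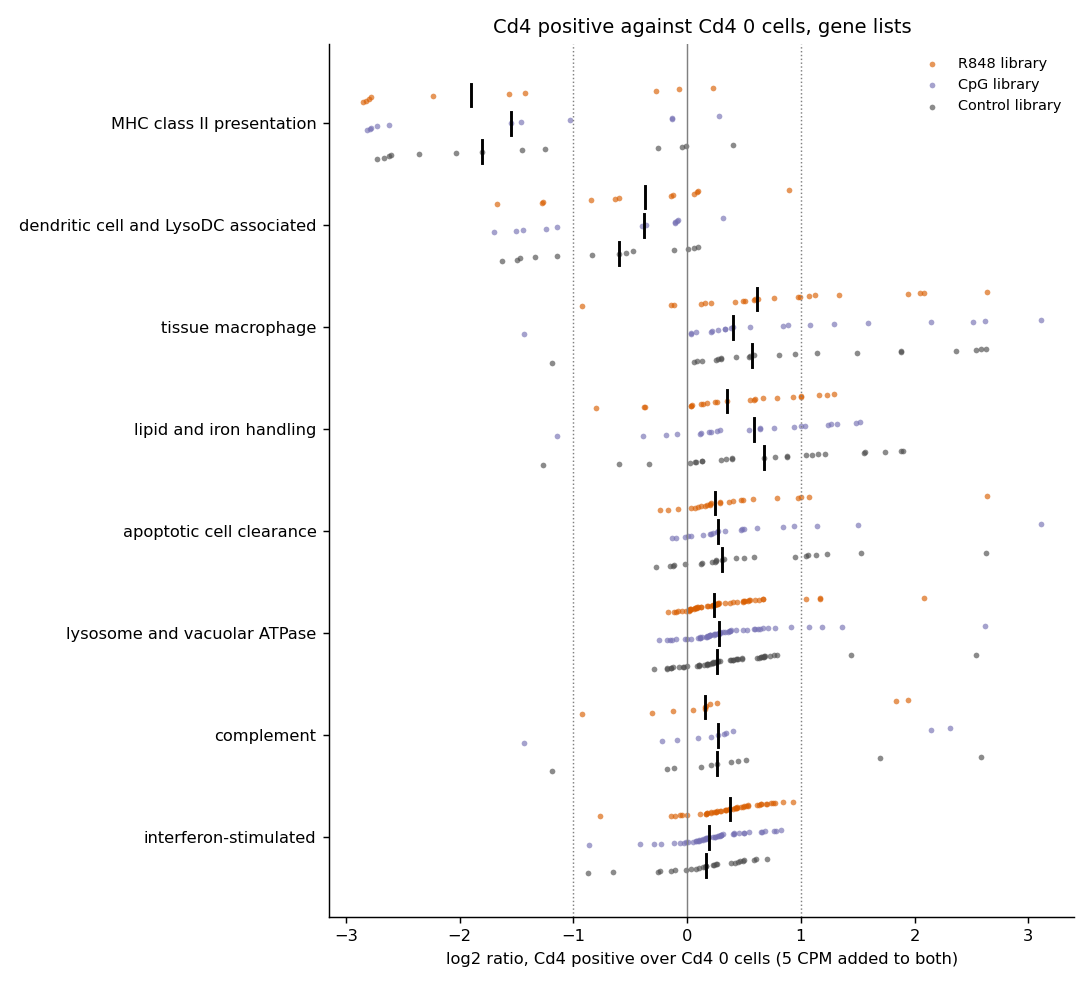
Log2 ratio of Cd4-positive over Cd4 0 cells of the gate for the measured genes of 8 lists, in the R848, CpG and Control libraries; each point is a gene, black bars are list medians and dotted lines mark 2-fold. The MHC class II medians lie at -1.90, -1.55 and -1.81, and the tissue macrophage medians at 0.61, 0.41 and 0.57. The tissue macrophage list includes the given markers C3, Igf1, Ms4a7 and Atp6v0d2.

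Timd4 divided the Cd4-positive cells further. A Timd4 UMI was found in 24.7% (21.2 to 28.4) of them with R848, 27.9% (23.4 to 32.7) with CpG and 27.6% (23.8 to 31.6) in Control, against 2.28%, 3.21% and 4.05% of Cd4 0 cells. These shares were also taken after thinning to 3000 UMIs, with cells kept in the classes of their full counts. The Cd4-positive cells then numbered 574 (R848), 379 (CpG) and 518 (Control). The shares were 8.71%, 16.1% and 16.6% of Cd4-positive cells, and 0.725%, 1.98% and 1.79% of Cd4 0 cells. Mature dendritic cells held a Timd4 UMI in 8.29% (R848), 4.50% (CpG) and 11.8% (Control) of cells, at about the depths given above, so for Timd4 they were no empty background. In Control, the 145 cells with Timd4 stood at 315 CPM of C3 and the 381 without it at 108 CPM (2.91-fold higher, 2.54 to 3.33). Igf1 stood at 199 CPM with Timd4 and 83.2 without it, Apoc1 at 119 and 37.9 CPM and Cd4 itself at 337 and 230 CPM. Il22ra2 stood at 621 CPM with Timd4 and 1949 without it, and H2-Aa at 855 and 1881 CPM. C3, Igf1 and Cd4 were higher, and Il22ra2 and H2-Aa lower, in the Timd4 cells of the R848 and CpG libraries too. Apoc1 was not: it stood at 17.0 CPM with Timd4 and 21.5 without it under R848, with an interval of the ratio that held 1 (0.516 to 1.18), and at 38.5 and 41.1 CPM under CpG (0.667 to 1.30).

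The cells of treated mice were then compared with those of untreated mice. Both agonists came with high interferon-stimulated genes and chemokines in the Cd4-positive cells, while the agonists differed in which chemokines and cytokines stood highest. With R848, 278 of 5027 measured genes were at least 2-fold higher than in Control (5.53%) and 101 were lower (2.01%). With CpG, 184 of 4842 were higher (3.8%) and 35 lower (0.723%). The median log2 ratio of all measured genes was 0.14 with R848 and 0.06 with CpG. Relative to these medians, 220 genes were higher and 150 lower with R848, and 165 higher and 52 lower with CpG. Both comparisons share the Control cells, whose median share of mitochondrial UMIs was 3.57%, against 2.06% with R848 and 2.51% with CpG.

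Of the interferon-stimulated genes, 45 of 47 measured were higher with R848 (median log2 ratio 2.14) and 44 of 46 with CpG (2.22), and none was lower. Ifit3 stood at 234 CPM with R848 and 234 with CpG, against 4.40 in Control (53.3-fold for R848, 35.4 to 84.3, and 53.1-fold for CpG, 35.2 to 84.0). Isg15, the ubiquitin-like modifier, stood at 1133 CPM with R848 and 1273 with CpG, against 75.4 in Control. Irf7, the factor that amplifies interferon production, stood at 1021, 793 and 104 CPM in the R848, CpG and Control libraries. The members within 2-fold in both comparisons were Irf9 and Ly6e. Because Control cells with 3 or more Cxcl10 UMIs were left out by rule, the same cells were also compared without that limit. With no such limit, the log2 ratio of Ifit2 was 3.54 for R848 and 3.53 for CpG, against 4.20 and 4.18.

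Interferon acts on many of these genes through the interferon-stimulated response element, a short repeat in their promoters. Its core, searched as TTTC, any 2 bases and TTTC on both strands with overlaps allowed, was found in 18 of the 34 listed genes that had a RefSeq window (52.9%), against 3.99% of all 27025 genes with a window and 3.44% of the 32851 windows. Ifit3 (chr19:34583279-34583528, plus strand, 2 matches) and Isg15 (chr4:156200819-156201068, minus strand, 3 overlapping matches read on the other strand) are shown as members that were at least 2-fold higher with both agonists, in GRCm38.p6, with the matches in capitals. The letters were found in 2 of 18 chemokine genes with a window, Cxcl10 and Cxcl14.
Ifit3: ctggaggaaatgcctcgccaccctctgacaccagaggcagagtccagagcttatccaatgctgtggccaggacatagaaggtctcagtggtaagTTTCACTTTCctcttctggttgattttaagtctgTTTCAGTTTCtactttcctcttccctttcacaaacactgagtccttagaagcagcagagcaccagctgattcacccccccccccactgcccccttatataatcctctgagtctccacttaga
Isg15: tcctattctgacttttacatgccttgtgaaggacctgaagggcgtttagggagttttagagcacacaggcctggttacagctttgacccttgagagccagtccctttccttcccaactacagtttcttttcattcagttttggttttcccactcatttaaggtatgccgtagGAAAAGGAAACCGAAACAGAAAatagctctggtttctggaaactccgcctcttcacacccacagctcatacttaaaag

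The interferon-induced GTPases that act on vacuoles of intracellular microbes gave 7 of 10 measured higher with R848 and 6 of 10 with CpG. Gbp2 stood at 278 CPM with R848 and 231 with CpG, against 95.9 in Control. MHC class I and the immunoproteasome gave 1 of 22 higher with R848 and 2 of 22 with CpG, with medians of 0.52 and 0.43. MHC class II presentation gave none higher and 2 of 11 lower with R848 (median -0.79), and 1 of 11 lower with CpG (-0.29). H2-DMb2 was lower in both, at 17.8 CPM with R848 and 33.4 with CpG, against 72.9 in Control. Free RNA was estimated to give 22.8 CPM of it in Control, 6.81 with R848 and 6.73 with CpG. With free RNA taken away its log2 ratio for R848 was -1.81, against -1.77. With cells thinned to 3000 UMIs and sorted anew by the rule it was -1.15.

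**Figure D4:**
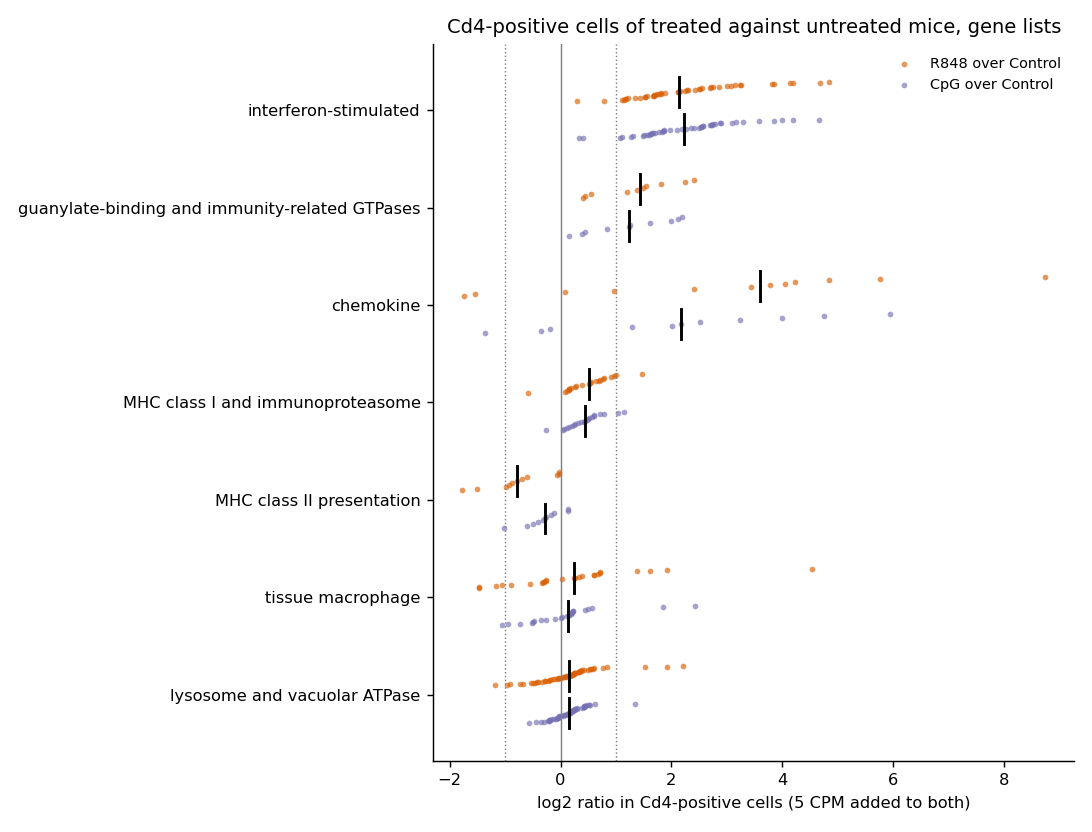
Log2 ratio in Cd4-positive cells of R848 over Control and of CpG over Control for the measured genes of 7 lists; each point is a gene, black bars are list medians and dotted lines mark 2-fold. The interferon-stimulated medians are 2.14 and 2.22, and the chemokine medians 3.60 and 2.18. Cxcl10, which the rule limited in Control, is among the chemokines.

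Chemokines gave 8 of 12 measured higher and 2 lower with R848 (median 3.60), and 8 of 11 higher and 1 lower with CpG (2.18). Cxcl10, which the rule limited in Control, was among the higher members in both. Ccl5, which draws T cells and monocytes (mm10 chromosome 11, 83525778 to 83530518, minus strand), stood at 4436 CPM with R848 and 160 with CpG, against 5.36 in Control. Its R848 level was 828-fold that of Control (573 to 1246) and 27.8-fold that of CpG (25.8 to 29.9). Free RNA was estimated to give 137 CPM of Ccl5 with R848, 78.1 with CpG and 3.27 in Control, and with it taken away the log2 ratio of R848 to CpG was 5.64, against 4.75. The 58 R848 cells with most Ccl5 held 33.8% of its UMIs, while the 38 such CpG cells held 71.8%.

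Cxcl9 and Cxcl10, ligands of CXCR3 on T cells and NK cells, stood in opposite order between the agonists. Cxcl9 stood at 1211 CPM with R848 and 205 with CpG (5.90-fold higher, 5.53 to 6.31), against 17.4 in Control. Cxcl10 stood at 506 CPM with R848 and 1090 with CpG (2.15-fold lower with R848, 2.06 to 2.25), against 12.8 in Control, where the rule limited it. Ccl12, a ligand of CCR2 in mice, stood at 113 CPM with R848 and 289 with CpG, against 5.93 in Control. Ccl3 stood at 495 CPM with R848 and 102 with CpG, against 21.6 in Control. It was higher in Cd4-positive than in Cd4 0 cells of every library (197, 43.2 and 7.05 CPM in the Cd4 0 cells of R848, CpG and Control). Of 10 chemokines measured between these cells, Ccl3 alone passed 2-fold within the R848 library, and Ccl3 and Ccl12 within the CpG library. Ccl5, Cxcl9 and Cxcl10 were within 2-fold of the Cd4 0 cells in both. Pf4, a platelet chemokine also made by macrophages, was lower with both agonists, at 2.78 CPM with R848 and 5.15 with CpG, against 21.05 in Control. Ccl8 stood at 113 CPM with R848, 9.47 with CpG and 2.10 in Control, but 58 cells held 804 of its 810 UMIs with R848 and 1 cell held 44 of 46 UMIs with CpG.

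Among cytokines, Il12b, the p40 chain of IL-12 and IL-23, stood at 113 CPM with R848 (106 to 121) and 3.71 with CpG (2.20 to 5.86), against 5.36 in Control (3.56 to 7.74). The CpG and Control intervals overlapped, and 69.2% of the R848 UMIs lay in 58 cells. Ebi3, a chain shared by IL-27 and IL-35, stood at 29.1 CPM with R848 and 9.06 with CpG, against 3.06 in Control. Il10, Tnf and Il6 stayed below 10 CPM in every library. The receptor of R848, Tlr7, stood at 61.1 CPM with R848 and 68.4 with CpG, against 27.0 in Control, and was at least 2-fold higher with both. The receptor of CpG, Tlr9, stood at 2.23 CPM (16 UMIs), 1.24 CPM (6 UMIs) and 0.765 CPM (4 UMIs) in the R848, CpG and Control libraries, with overlapping intervals.

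**Figure D5:**
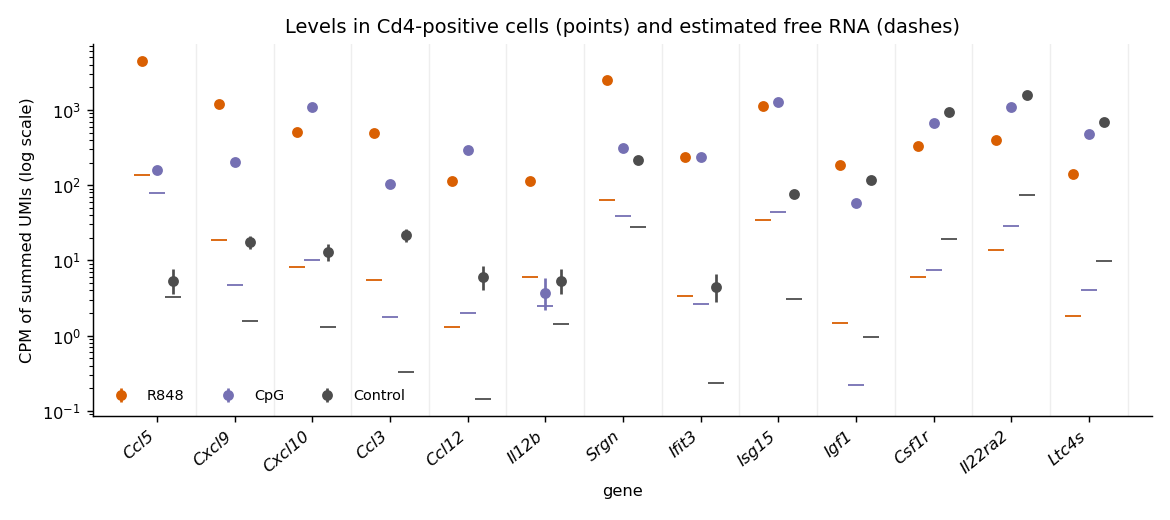
Levels (CPM of summed UMIs, log scale) of 13 genes in Cd4-positive cells of the R848, CpG and Control libraries; points are levels, bars exact Poisson intervals (often smaller than the point) and dashes the level estimated for free RNA. Ccl5 stands at 4436 CPM with R848, 160 with CpG and 5.36 in Control, and the free RNA estimates are 137, 78.1 and 3.27 CPM.

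The genes that mark these cells differed in their order over the libraries. C3 stood at 255 CPM with R848 and 128 with CpG, against 166 in Control, all within 2-fold of Control. Igf1 stood at 186 CPM with R848 and 57.4 with CpG, against 115 in Control, and was 3.24-fold higher with R848 than with CpG (2.85 to 3.70). Timd4 stood at 45.0 CPM with R848 and 90.0 with CpG, against 88.2 in Control, within 2-fold of Control for both. Csf1r, the receptor of the macrophage growth factor CSF1, stood at 335 CPM with R848 and 673 with CpG, against 934 in Control, and passed 2-fold with R848 (2.79-fold lower, 2.66 to 2.93). Of the tissue macrophage genes, 4 of 25 measured were higher and 4 lower with R848, and 2 of 24 were higher and 1 lower with CpG. Sepp1 was lower with both agonists, at 151 CPM with R848 and 204 with CpG, against 430 in Control. Fcgr4, an activating IgG receptor, was higher with both, at 205 and 43.4 CPM, against 4.02 in Control. Lyz1, which chose the cells, stood at 11301 CPM with R848 and 16005 with CpG, against 20120 in Control.

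Several other named genes were lower in treated mice. Notch2 stood at 37.0 CPM with R848 and 44.3 with CpG, against 135 in Control, the carboxypeptidase-like Cpxm1 at 14.8 and 31.7 CPM against 104, and the immediate-early factor Jun at 25.7 and 41.2 CPM against 105. Costimulatory and checkpoint ligands gave 3 of 13 measured higher with R848 and 3 of 13 with CpG, Cd86 and Cd274 among them in both, and 1, Vsir, lower with R848 (102 CPM, against 219 in Control). Cd86 stood at 261 CPM with R848 and 158 with CpG, against 68.1 in Control, and Cd274, which encodes the checkpoint ligand PD-L1, at 193 and 133 CPM, against 53.8.

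The agonists were also compared with each other. Of 4944 measured genes, 90 were at least 2-fold higher with R848 than with CpG (1.82%) and 23 lower (0.465%). The highest by log2 ratio were Ccl5, Il12b, Ly6a, Ccl8, Srgn and Pltp, of which Ccl5, Il12b and Ccl8 are described above. Ly6a, an interferon-inducible cell surface marker, stood at 198 CPM with R848 and 14.6 with CpG. Srgn, the granule proteoglycan serglycin, stood at 2510 CPM with R848 and 314 with CpG. Srgn stood at 215 CPM in Control. The phospholipid carrier Pltp stood at 232 CPM with R848 and 28.2 with CpG. Lower with R848 were Serpina11 (8.07 and 55.4 CPM), the leukotriene synthase Ltc4s (140 and 474 CPM), Il22ra2 (399 and 1084 CPM), the urokinase receptor Plaur (78.5 and 216 CPM) and the scavenger receptor Msr1 (108 and 288 CPM). Of 47 measured interferon-stimulated genes, 1 was higher with R848, Ly6a, and 1 lower, Ifi205, and the median log2 ratio was -0.03. Chemokines gave 6 of 12 higher and 3 lower.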

How the data were processed

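Gene by cell UMI count matrices with barcode and gene-name files were deposited by the authors, 1 set per library. They came from Cell Ranger 2.0.0 with reads aligned to mm10, per the submitters' processing notes; no annotation release is stated there. Depth was 46556726 (R848), 43767864 (CpG) and 43537067 (Control) UMIs over 5133, 5049 and 5344 barcodes, and cells with at least 500 genes and at most 10% mitochondrial UMIs were kept. Counts were summed over the cells of a group and scaled to CPM. Levels have exact Poisson intervals, ratios exact conditional binomial intervals and shares Clopper-Pearson intervals. Log2 ratios had 5 CPM added to both sides, so they understate differences of low genes.

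Free RNA was estimated from the C1q UMIs of mature dendritic cells outside the gate (4 or more UMIs each of Ccr7 and Fscn1), as 3.02% (R848), 2.58% (CpG) and 4.22% (Control) of UMIs. Cells with high simulated-doublet scores were kept in the values given, and removed in an alternative. For each comparison with Control and within each library, the 14 highest and 10 lowest genes could be named (6 each way between the agonists), given at least 50 CPM and 20 UMIs in the higher group, at least 2-fold and an interval without 1, as well as list members and the 8 genes of most unequal share. Immunoglobulin, T cell receptor, haemoglobin, ribosomal, mitochondrial, unnamed and gate genes could not be. The cells and the 20 gene lists (531 genes, with overlaps between lists) were chosen with earlier results of these data known. Positions come from GENCODE M21, where 561 of 562 genes were found. Motif shares used RefSeq windows from 250 bases before to 50 after each start. The ratio and interval steps were tested on simulated data. Python 3.11.15, numpy 2.4.6, scipy 1.17.1, pandas 2.3.3, scikit-learn 1.9.0 and matplotlib 3.10.9 were used.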

Additional observations from a re-analysis of the deposited data

Results flagged for a closer look

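In Control, 20 cells of the gate with Cd4 were left out because they held 3 or more UMIs of Cxcl10, and they carried a signal outside the comparisons. Isg15 stood at 417 CPM in these cells (331 to 517, 82 UMIs), against 75.4 CPM in the Control cells described above. Rsad2 stood at 249 and 20.3 CPM, and Ifit1 at 142 and 10.3 CPM. Ccl5 had 0 UMIs in them, with an upper bound of 18.7 CPM. Ms4a7 stood at 732 and 730 CPM. The cells were chosen by Cxcl10, so these values are a description, and the cause was not tested.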

How the results depend on the processing

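There were 16 alternatives, 2 of them chosen after seeing the data (leaving out cells with a T or B cell marker other than Cd79b, and cells of high MHC class II). None of the 84 named ratios turned its direction. These ratios were those between libraries and those of Cd4-positive against Cd4 0 cells in Control. Ratios within the R848 and CpG libraries were not run through the alternatives. The order of the shares did turn: the CpG share, 7.57%, was below the Control share, 9.92%, but above it without cells holding a T or B cell marker, and the R848 share was not above the Control share in thinned cells. Of 235 values of the main counts and shares, 191 stayed within the limits set and 44 moved. Adding 1 CPM gave 56 genes lower with CpG than in Control. Adding 20 CPM gave 162 higher and 44 lower for R848 against Control, 118 and 13 for CpG against Control, 38 and 13 for R848 against CpG, and 41 and 34 for Cd4-positive against Cd4 0 cells in Control. A minimum of 100 CPM gave 118 and 37, 97 and 14, 28 and 14, and 31 and 25 in the same order. Cells thinned to 3000 UMIs were sorted anew by the rule. They gave 188 lower for R848 against Control, 297 higher and 138 lower for CpG against Control, and 198 and 89 for R848 against CpG. Their shares were 6.05% (R848), 3.86% (CpG) and 6.09% (Control). At least 2 Cd4 UMIs gave shares of 7.30%, 4.92% and 5.83%. Leaving out cells with any T or B cell marker UMI left 119, 89 and 82 Cd4-positive cells, with 463 and 185, 337 and 150, and 154 and 67 genes between libraries, 120 lower in Cd4-positive cells of Control, and shares of 6.14%, 3.98% and 2.96%. Sparing Cd79b from that limit gave shares of 15.1%, 10.9% and 11.1%, and leaving out cells of high MHC class II 10.4%, 6.71% and 8.79%. The cause of these shifts was not tested. Interferon-stimulated genes higher numbered 32 to 45 of those listed with R848 and 32 to 45 with CpG over the alternatives. Of 1344 values for 84 named ratios, 235 moved and none reversed. No paired analysis was possible because each group has 1 library.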
